A study of Mus musculus with 2 samples.

Results

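The genes described here were 6 members of the S100 family: S100a4, S100a6, S100a8, S100a9, S100a10 and S100a11. They were taken by symbol from the 31053 genes of each count table, and were chosen with earlier results of these data known. UMIs (unique molecular identifiers, each marking 1 captured transcript) were counted in CD45.2+ propidium iodide-negative leukocytes sorted from GL261 gliomas, a mouse glioma line, at 10 dpi (days post injection). The samples were a WT and a CD169-DTR library, each made from the pooled brains of 3 male C57BL/6 mice given 100000 GL261 cells into the brain. CD169-DTR mice were heterozygous for a diphtheria toxin receptor placed in the Siglec1 (CD169) locus under that gene's promoter, so that diphtheria toxin (DT) removes CD169+ cells. Both groups, the WT controls included, received DT at day -1 and day 4 of tumor injection. The hemisphere was perfused, digested and cleared of myelin on Percoll before the sort. With 1 library per genotype, genotype and library cannot be told apart, no test between the groups was possible, and every interval below covers counting error only.

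S100 proteins are small EF-hand proteins that bind calcium and mostly work as dimers. S100A8 and S100A9 pair to form calprotectin, which is very abundant in neutrophils and monocytes, binds metal ions and, once released, acts on receptors such as TLR4 and RAGE. S100A4 binds non-muscle myosin and is known from motile cells, S100A6 binds annexins and calcyclin-binding protein, and S100A10 and S100A11 form complexes with annexin A2 and annexin A1 respectively. Microglia are the resident macrophages of the brain parenchyma, whereas monocyte-derived macrophages enter a glioma from the blood.

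All 6 genes lie on mouse chromosome 3 (GRCm38, GENCODE M21), are protein-coding and have a principal transcript of 3 exons. S100a4 (chr3:90603771-90606045, plus strand), S100a6 (chr3:90612882-90624181, plus strand), S100a8 (chr3:90668978-90670035, plus strand) and S100a9 (chr3:90692632-90695721, minus strand) form a cluster. The facing genes S100a8 and S100a9 are 22596 bases apart with 0 annotated genes between them. S100a11 (chr3:93520488-93526287) and S100a10 (chr3:93555080-93564643), both on the plus strand, lie 2824766 bases and 102 genes further along. S100a4 overlaps Gm42674 on the same strand, so reads could not be divided with certainty between those genes.

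The promoters are shown because the members differ in the classes that hold them. S100a8 and S100a9 were held almost only by granulocytes, and the other members were shared more widely by macrophages, dendritic cells and lymphocytes. Of those others, S100a6 and S100a11 were also highest in granulocytes, whereas S100a4 and S100a10 were low there. RefSeq (GRCm38.p6) gave a start for 5 of the 6 members, and S100a10 is named only. Each line has 110 bases, 90 before the RefSeq start and 20 from the start on, read 5′ to 3′ on the gene's strand, with TATAAA in capitals. The windows are S100a4 chr3:90603680-90603789, S100a6 chr3:90612804-90612913, S100a8 chr3:90668981-90669090, S100a9 chr3:90695702-90695811 (minus strand) and S100a11 chr3:93520406-93520515.
S100a4: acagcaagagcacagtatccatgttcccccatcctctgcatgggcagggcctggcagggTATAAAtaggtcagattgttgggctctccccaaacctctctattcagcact
S100a6: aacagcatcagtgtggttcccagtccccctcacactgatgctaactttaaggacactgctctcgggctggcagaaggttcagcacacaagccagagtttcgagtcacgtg
S100a8: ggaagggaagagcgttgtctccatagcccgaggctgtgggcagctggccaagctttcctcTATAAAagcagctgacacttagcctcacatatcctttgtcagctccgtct
S100a9: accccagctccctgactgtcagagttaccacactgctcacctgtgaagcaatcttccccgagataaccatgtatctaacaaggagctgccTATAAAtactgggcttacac
S100a11: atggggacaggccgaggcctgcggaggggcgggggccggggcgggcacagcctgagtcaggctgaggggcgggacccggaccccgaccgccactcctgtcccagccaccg

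In the 300 bases from 250 before to 50 after the start, searched on both strands, TATAAA is in the promoters of S100a4, S100a8 and S100a9 and not in those of S100a6 and S100a11. Its first base is at -31 in S100a4 and at -30 in S100a8 relative to the start (position 1), and at position 1 itself in S100a9. TATAAA is in 13.6% of 32851 mouse promoter windows of the same length. TTGCNNAA (C/EBP) is in 10.8% of them and among the members only in S100a9, at -236. GAGGAA (PU.1) is in 28.3% of all windows, and S100a8 has it at -170 and -36, S100a11 at -153 and S100a4 at 20. TGANTCA (AP-1) is in 7.81% of all windows and occurs at -136 and -38 in S100a11, whose window also has the highest GC content (61.7%, against 49.3% to 55.3% in the other members and a median of 52.7% over all windows). These are matches of letters, and no binding was measured.

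Sequencing depth was 101808996 UMIs for WT and 84065489 for CD169-DTR. After barcodes needed 500 UMIs and at most 17% mitochondrial UMIs, 10363 and 7693 cells remained, with medians of 7614 and 8008 UMIs, and 21 barcodes occurred in both libraries (11.7 would be shared if barcodes were drawn at random). Clusters made without the S100 genes were named from marker genes. The names mean microglia-like, macrophage-like and so on, and are shortened from here on. WT held 4722 microglia, 2373 macrophages, 1160 dendritic cells, 166 granulocytes, 492 T, 331 NK and 75 B cells, and CD169-DTR held 5352, 746, 239, 196, 218, 87 and 124 of them. Every marker of these classes was higher in its own class than in other immune cells in both libraries, except Fscn1 in CD169-DTR dendritic cells (59.7 against 117 CPM). CPM are UMIs per 1000000 UMIs of a class, and since 3′ counting takes 1 UMI per transcript, levels of different genes are not scaled by length. Siglec1, the gene that carries the receptor, was counted in macrophages at 38.0 CPM (95% exact Poisson interval 35.2 to 40.9) in the WT library, and at 12.2 CPM (10.1 to 14.6) in the CD169-DTR library. Free RNA, read from barcodes of 10 to 100 UMIs, contained all 6 members, and its levels are given beside the results they touch.

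**Figure D1:**
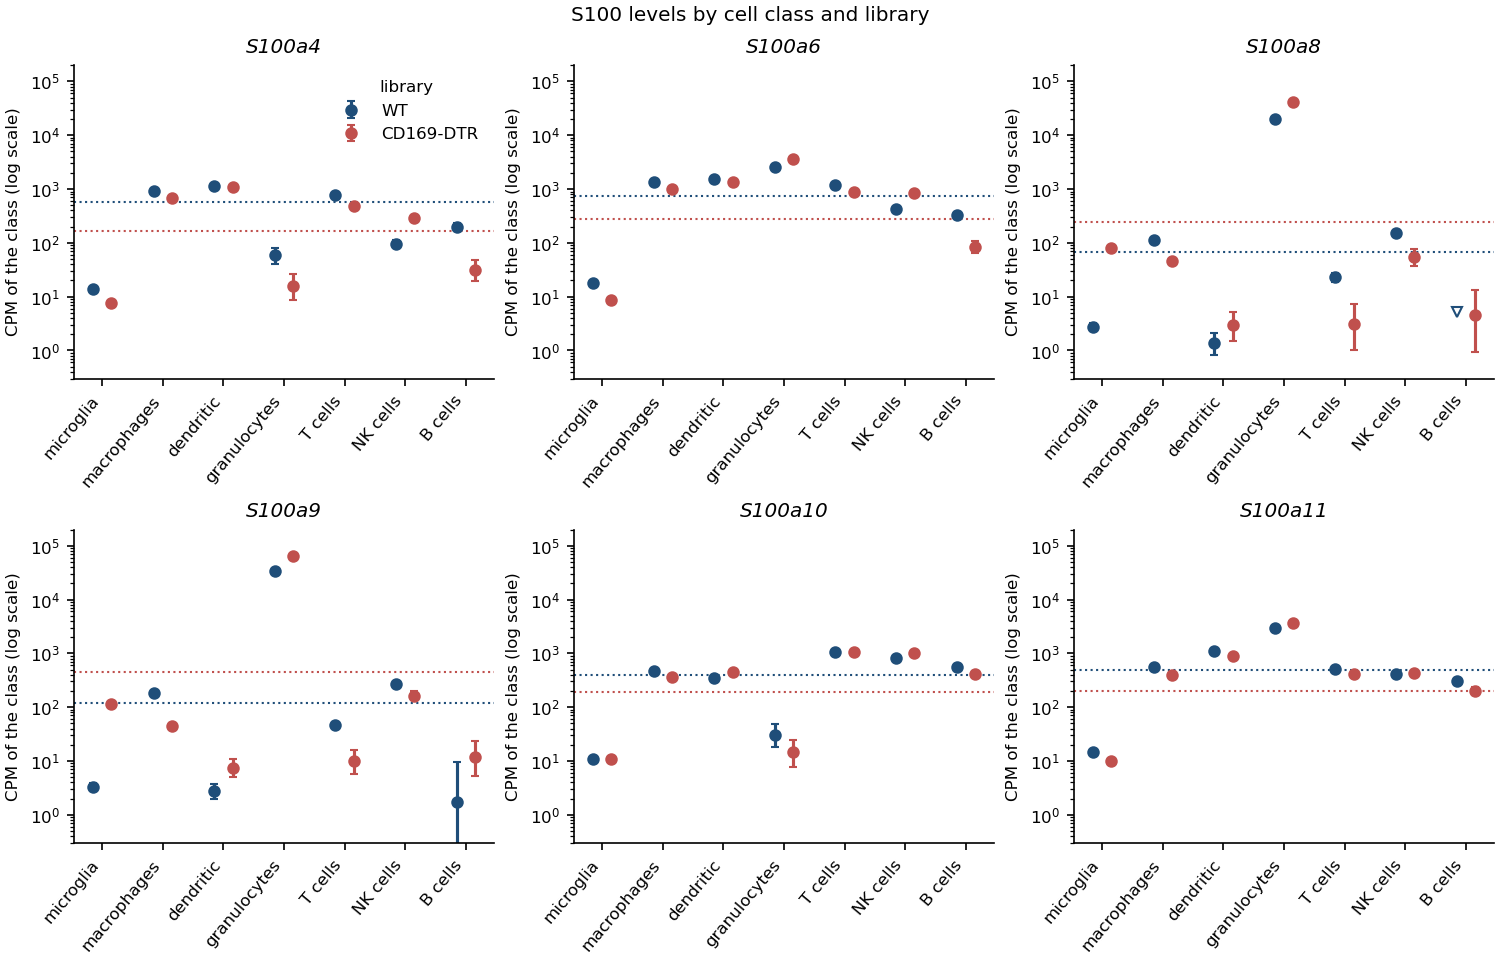
Level of each S100 gene (y axis, CPM, log scale) in 7 immune classes of the WT and CD169-DTR libraries, with 95% counting intervals. Dotted lines mark each library's free RNA and an open triangle the level of 3 counts where no UMI was counted. S100a8 and S100a9 peak in granulocytes (20221 and 33631 CPM in WT), whereas the other 4 genes are lowest in microglia among the classes drawn.

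The calprotectin genes S100a8 and S100a9 belonged to granulocytes in both libraries. S100a8 was at 20221 CPM (19862 to 20585) in WT and 42189 CPM (41764 to 42617) in CD169-DTR granulocytes, and S100a9 at 33631 (33167 to 34100) and 65170 CPM (64642 to 65702). Granulocytes were 1.60% of WT and 2.55% of CD169-DTR cells, yet they held 81.4% and 88.5% of all S100a8 UMIs and 81.5% and 89.1% of all S100a9 UMIs. S100a8 was present in 91.6% and 96.9% of granulocytes, a shallow class with medians of 2901 and 3599 UMIs. In the 24 WT and 51 CD169-DTR granulocytes deep enough to be thinned to 4500 UMIs, the median cell held 23.5 and 252 S100a8 UMIs, and the range from the 10th to the 90th percentile (4.3 to 448 and 7 to 581) overlapped broadly.

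Outside granulocytes, S100a8 and S100a9 rested on few cells. Cells with at least 20 UMIs of the pair together, a limit chosen after the values were seen, numbered 2 WT and 4 CD169-DTR microglia, and these held 50.4% and 93.6% of the pair's UMIs in that class. Among macrophages, 9 WT and 6 CD169-DTR cells held 97.1% and 79.1% of them. A single CD169-DTR cell placed with microglia had 3813 S100a8 and 5407 S100a9 UMIs, which was 92.6% and 90.5% of all the class had. That cell had 1 UMI of microglial markers, against a class median of 104, and 4612 UMIs of the granule genes Camp, Ngp, Ltf and Lcn2, and its doublet score was 0.099 (class median 0.0898). A single WT macrophage similarly held 80.0% of the class's S100a8 and 82.6% of its S100a9, with 2030 UMIs of the granule genes.

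Without those cells, the pair was low and close in proportion to free RNA in nearly every class. S100a8 was then at 1.07 and 4.16 CPM in WT and CD169-DTR microglia, which is 1.60% and 1.73% of the library's free RNA level, and S100a9 at 1.94 and 8.36 CPM, which is 1.61% and 1.86% of it. In dendritic, T, NK and B cells with a UMI of the gene, the level likewise lay between 1.23% and 2.87% of free RNA. The exceptions were S100a8 in macrophages, at 5.44 and 12.3 CPM (8.11% and 5.09%), and WT plasmacytoid dendritic cells, where S100a8 and S100a9 stood at 10.2% and 7.13% on 8 and 10 UMIs. In B cells of WT no S100a8 UMI was counted in 75 cells, which allows up to 5.22 CPM (3 counts).

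Macrophages also differed in the balance of the pair. Without the cells rich in both, macrophages of WT had 1.68 S100a8 UMIs per S100a9 UMI (exact conditional interval 1.21 to 2.36), and those of CD169-DTR had 1.75 (1.29 to 2.39). The ratio was 0.554 (0.378 to 0.804) and 0.498 (0.421 to 0.587) in microglia, 0.601 and 0.647 in granulocytes, and 0.558 and 0.535 in free RNA, so the macrophage intervals did not overlap any of these. Within macrophages the ratio was 2.52 (1.59 to 4.09) and 1.82 (1.18 to 2.86) in the cluster led by Pf4, and 0.786 (0.428 to 1.42) and 1.48 (0.887 to 2.51) in the cluster led by Clec4e, where the WT interval overlapped those of free RNA and granulocytes. Leaving out rich cells used these same UMIs, so the ratios are a description.

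**Figure D2:**
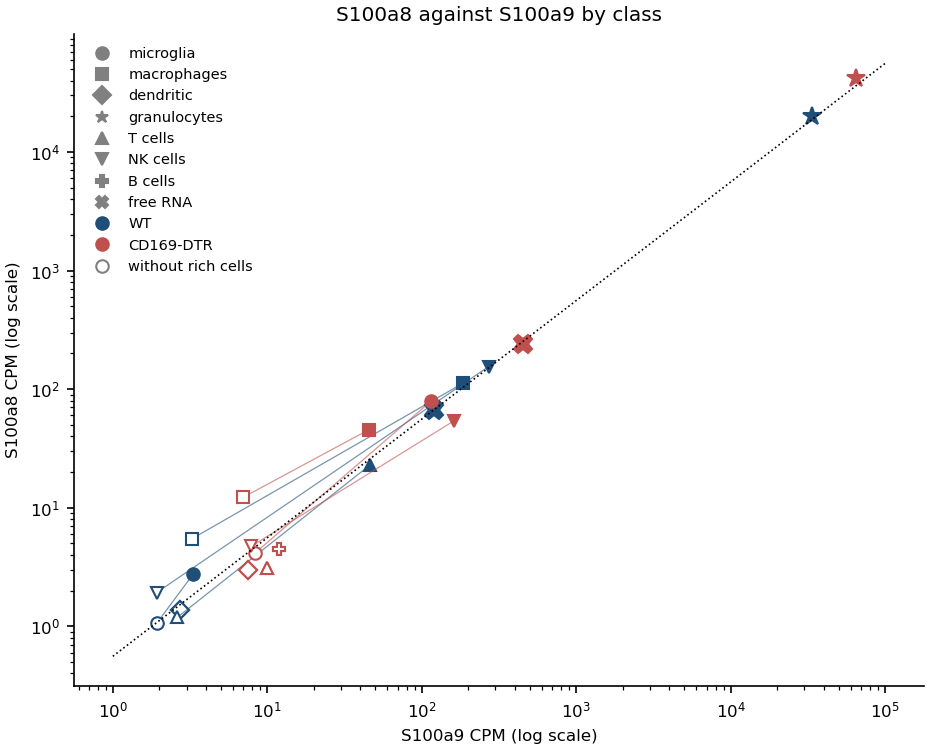
S100a8 level (y axis, CPM, log scale) against S100a9 level (x axis, CPM, log scale), with a marker shape per class and blue for WT and red for CD169-DTR. Filled points are all cells of a class, open points joined to them leave out cells with 20 or more UMIs of the pair, and the dotted line has the ratio of WT free RNA (0.558). The open macrophage points (S100a8 at 5.44 and 12.3 CPM) lie above the line, and the CD169-DTR microglia go from 79.3 to 4.16 CPM of S100a8 when 4 of 5352 cells are left out.

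S100a4 and S100a6 were high in macrophages, dendritic cells and T cells and low in microglia. S100a4 was at 13.8 CPM (591 UMIs) in WT and 7.52 CPM (391 UMIs) in CD169-DTR microglia, at 924 and 672 CPM in macrophages, and at 1163 and 1079 CPM in dendritic cells. Macrophages, dendritic cells and T cells (767 and 492 CPM) thus lay far above microglia in both libraries, and the counting intervals of these 3 classes did not overlap those of microglia. NK cells had 96.5 and 292 CPM, B cells 198 and 31.3 CPM and granulocytes 58.7 and 15.7 CPM, on 35 and 14 UMIs in granulocytes. The granulocyte values were 10.4% and 9.44% of free RNA. In order of level, dendritic cells came before macrophages and T cells in both libraries, while the order of NK and B cells differed between them.

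At a common depth of 4500 UMIs per cell, an S100a4 UMI was found in 77.0% of WT and 61.0% of CD169-DTR macrophages (71.7% and 65.8% without thinning) and in 4.18% and 1.91% of microglia (7.60% and 4.19% without thinning). Choroid plexus cells, which served as the background class for S100a4 only, had it in 2.94% of 136 thinned WT cells (exact Clopper-Pearson interval 0.807% to 7.36%). They had it in 0 of 157 CD169-DTR cells, which allows up to 1.91% by 3 counts and 2.32% by the Clopper-Pearson interval. In WT, a single cell held 37 of the 60 S100a4 UMIs of the class. For S100a6, 22.8% and 13.4% of thinned choroid plexus cells held a UMI, so the class is no background for that gene. Their median depth was 15506.5 and 12726 UMIs, against 7654.5 and 7895.5 in microglia. The microglial S100a4 share was thus inside the Clopper-Pearson interval of the choroid plexus cells in both libraries, and level with the 3-count limit in CD169-DTR.

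S100a6 was high in macrophages and dendritic cells, like S100a4, and also in granulocytes. It was at 17.7 and 8.58 CPM in WT and CD169-DTR microglia, at 1380.2 and 999.8 CPM in macrophages, at 1535 and 1354 CPM in dendritic cells, and at 2594 and 3619.8 CPM in granulocytes, its highest class. T cells had 1198 and 867 CPM, plasmacytoid dendritic cells 608 and 656 CPM, and NK cells 417 and 862 CPM. After thinning, 90.5% and 73.6% of macrophages and 5.28% and 1.83% of microglia held a UMI (8.79% and 3.27% of microglia without thinning). The microglial levels of S100a4 and S100a6 were 2.38% to 4.52% of the free RNA of their library. The smaller estimate of free RNA, 139 UMIs per cell in WT and 87.2 in CD169-DTR, came to 62.7% and 19.8% of the microglial S100a4 UMIs and to 64.5% and 28.7% of the S100a6 UMIs. In WT, 222 free UMIs per cell would equal all microglial S100a4, and the larger estimate was 1655.

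The annexin partners S100a10 and S100a11 were both low in microglia but led in different classes. S100a10 was at 10.9 CPM (466 UMIs) and 10.7 CPM (558 UMIs) in WT and CD169-DTR microglia, at 463 and 365 CPM in macrophages, at 1051 and 1057 CPM in T cells and at 815 and 1034 CPM in NK cells. B cells had 562 and 410 CPM, above macrophages in WT and with overlapping intervals in CD169-DTR. At matched depth 91.1% and 88.1% of T cells and 89.6% and 97.2% of NK cells held an S100a10 UMI, compared with 67.3% and 52.4% of macrophages and 3.64% and 3.16% of microglia. Granulocytes had 18 and 13 S100a10 UMIs (30.2 and 14.6 CPM), or 7.55% and 7.73% of the free RNA level. T and NK cells were thus the highest classes for S100a10 and microglia the lowest, with granulocytes next above microglia among the 7 classes.

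S100a11 was at 14.9 and 10.0 CPM in microglia, at 556 and 395 CPM in macrophages, at 1102 and 900 CPM in dendritic cells, and at 2953 and 3658 CPM in granulocytes. T cells (509 and 419 CPM), NK cells (421 and 422 CPM) and B cells (304 and 203 CPM) were near or below macrophages. A thinned cell held an S100a11 UMI in 77.1% and 70.6% of macrophages, 92.7% and 85.5% of dendritic cells and 5.32% and 3.33% of microglia. Like S100a6, S100a11 therefore joined granulocytes with dendritic cells, and unlike S100a10 it did not lead in lymphocytes. Microglial levels of S100a10 and S100a11 were 2.72% to 5.70% of free RNA. The smaller estimate of free RNA came to 56.4% (WT) and 15.8% (CD169-DTR) of the microglial S100a10 UMIs. For S100a11 it came to 50.6% and 18.0%.

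The share of cells that held several members at once differed by class. Joint detection depends on the level of each gene, and no comparison with chance was made. All 4 of S100a4, S100a6, S100a10 and S100a11 were found in 51.0% of thinned WT macrophages and in 37.2% of those from CD169-DTR, and none of the 4 in 3.46% and 9.71%. In microglia, 83.8% and 90.5% held none of the 4. For S100a8 and S100a9, 11 of 4806 thinned CD169-DTR microglia held both genes, 87 held S100a8 alone and 175 S100a9 alone, whereas all 51 thinned CD169-DTR granulocytes held both.

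Macrophages, taken as infiltrating cells, were compared with resident microglia within each library. The largest macrophage cluster (1206 WT and 342 CD169-DTR cells) was led by Pf4, which is also on the marker list of border-associated macrophages. In that cluster 4 of the 10 listed macrophage markers were detected. Another class on the marker lists had a larger share of its markers detected there. The cluster was named macrophages because Gpnmb, Ms4a7 and Arg1 were among its leading genes. Whether the macrophage class includes resident border-associated macrophages was not tested. In WT, all 6 members were past 2-fold higher in macrophages, where 11.1% of 12098 genes were, and in CD169-DTR 4 of 6 were, where 8.33% of 12099 genes were. Past 2-fold lower were 0 members in WT (25.7% of genes) and 1, S100a9, in CD169-DTR (24.7%). The median gene was lower in macrophages by 0.35 (WT) and 0.38 (CD169-DTR) on the log2 scale, so the ratios below lie still further above the typical gene. On the log2 scale, S100a6 differed most, by 6.28 (6.18 to 6.39) in WT cells and by 6.86 (6.73 to 7.004) in CD169-DTR cells. S100a4 followed with 6.07 (5.95 to 6.19) and 6.48 (6.33 to 6.63). S100a10 and S100a11 had 5.41 and 5.22 in WT and 5.09 and 5.30 in CD169-DTR. Those 4 genes kept their direction in every alternative processing run, but the sizes moved: S100a6 ranged from 6.201 to 7.77 in WT and from 6.48 to 8.66 in CD169-DTR, and S100a4 from 5.99 to 7.48 and from 6.07 to 7.57.

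S100a8 and S100a9 were higher in WT macrophages by 5.35 (5.08 to 5.63) and 5.80 (5.56 to 6.05) on the log2 scale, but in CD169-DTR they were lower, by -0.80 (-0.94 to -0.66) and -1.34 (-1.48 to -1.20). Without the rich cells, S100a8 was higher in macrophages in both libraries, at 2.34 (1.82 to 2.88) and 1.56 (1.22 to 1.89), and S100a9 was at 0.74 (0.23 to 1.23) and -0.26 (-0.65 to 0.12). Without the microglial cluster led by Pbk, or without cells that held a marker of another class, 6 of 6 members were past 2-fold higher in CD169-DTR macrophages. All infiltrating immune cells together, 4700 in WT and 1621 in CD169-DTR, were past 2-fold above microglia for 6 of 6 members in both libraries (14.8% and 11.8% of genes), with granulocytes among them. The log2 ratios of that comparison ranged from 5.48 up to 7.48 (WT) and from 4.78 up to 7.07 (CD169-DTR).

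**Figure D3:**
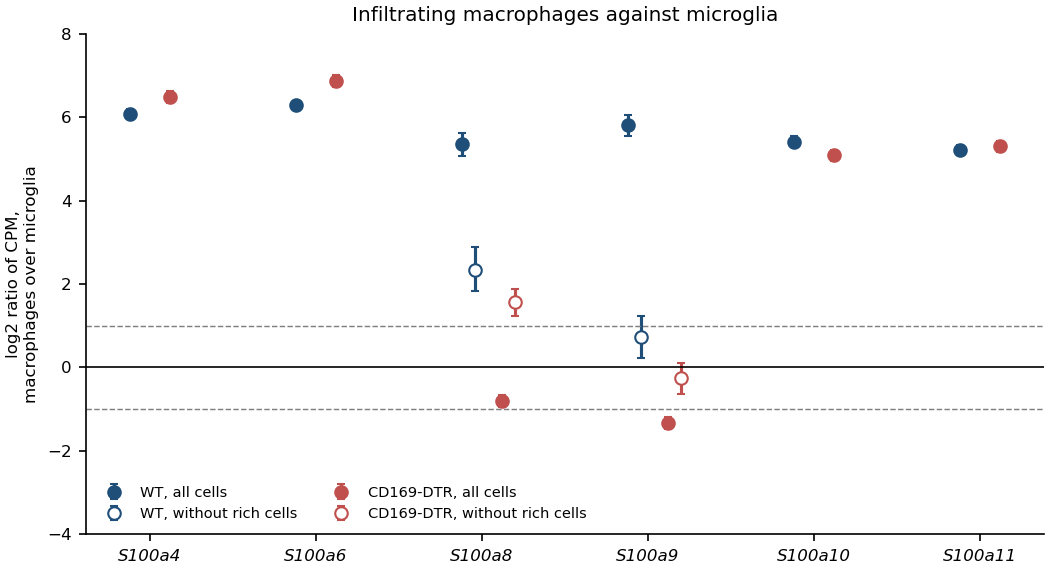
Log2 ratio of macrophages over microglia for each S100 gene in both libraries, with 95% counting intervals, and open points without cells rich in S100a8 and S100a9. S100a4, S100a6, S100a10 and S100a11 lie between 5.09 and 6.86 in both libraries, whereas S100a8 and S100a9 lie above 5 in WT and below 0 in CD169-DTR.

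Within macrophages, the 4 broadly held members differed by cluster. They were lowest in the cluster led by Pf4, Gpnmb and Ms4a7 (1206 WT and 342 CD169-DTR cells) and higher in the clusters led by Clec4e, Vcan and F10 (983 and 259 cells) and by Ear2, Adgre4 and Cd300e (184 and 145 cells). S100a4 was at 357 and 223 CPM in the Pf4 cluster, at 1202 and 1093 CPM in the Clec4e cluster and at 2142 and 1603 CPM in the Ear2 cluster. S100a6 was at 897 and 511, 1691 and 1558, and 1983 and 1774 CPM in the same order. The Ear2 cluster was therefore the highest for both genes in each library, and the Pf4 cluster the lowest. S100a10 and S100a11 had their lowest levels in the Pf4 cluster too (237 and 195 CPM, 271 and 208 CPM), but S100a10 was highest in the Clec4e cluster (656 and 648 CPM), and for S100a11 the Clec4e cluster led in WT (787 against 629 CPM in the Ear2 cluster) with both close in CD169-DTR (627 and 645 CPM).

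Dendritic cell clusters separated S100a4 from S100a11. The cluster led by Cd209a had S100a4 at 1494 and 1288 CPM and the cluster led by Cacnb3 and Ccr7 at 1346 and 1410 CPM (153 and 14 cells), whereas the cluster led by Xcr1 had 106 and 89.4 CPM. S100a11 in contrast was at 1062 and 815, 1163 and 888, and 1185 and 1261 CPM in the same clusters. S100a10 was at 453 and 577 CPM in the Cd209a cluster and lower in the Cacnb3 (128 and 74.0 CPM) and Xcr1 (126 and 93.9 CPM) clusters.

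Microglial clusters were all below the macrophage clusters in S100a4 and S100a6. The cluster led by Pbk, Prc1 and Plk1, genes of dividing cells, had the highest S100a4 (41.6 and 22.6 CPM) and S100a6 (48.1 and 38.9 CPM), against 5.81 to 14.2 CPM and 3.43 to 18.2 CPM of S100a4 in the others. It was also the cluster of the CD169-DTR cell described above, with S100a8 at 7.32 and 562 CPM. Its median depth was 12847.5 and 15108 UMIs, above most other microglial clusters. Clusters were made without these genes, but they share cells with the other genes that defined them, and the differences are a description.

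**Figure D4:**
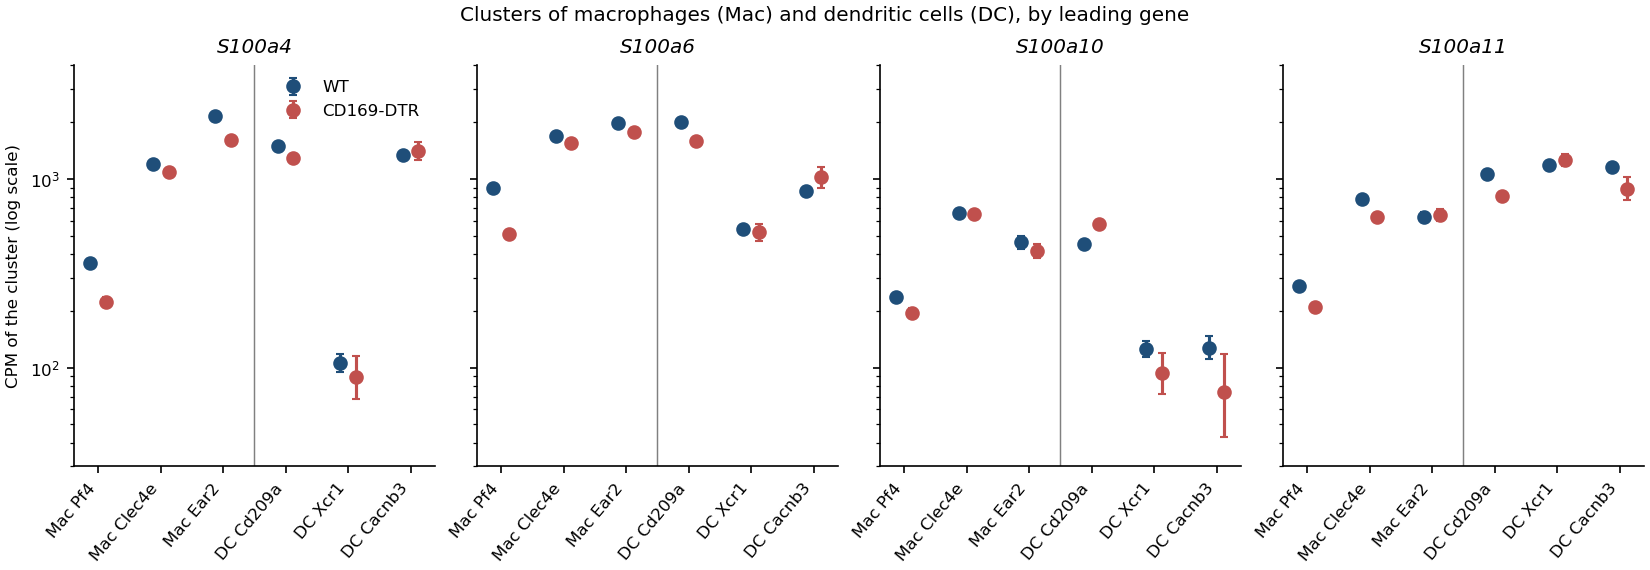
S100 levels (y axis, CPM, log scale) in the clusters of macrophages (Mac) and dendritic cells (DC), named by a leading gene, in both libraries with 95% counting intervals. S100a4 goes from 357 (Pf4) to 2142 CPM (Ear2) across WT macrophage clusters and from 106 (Xcr1) to 1494 CPM (Cd209a) across WT dendritic cell clusters.

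WT and CD169-DTR macrophages were compared as the next question of the design, since the depletion acts on Siglec1-expressing cells. In macrophages, 2 of 6 members (S100a8 and S100a9) were past 1.5-fold higher in WT, where 6.82% of 10474 genes were, and 0 were past 1.5-fold lower, where 5.44% were. S100a4, S100a6, S100a10 and S100a11 were higher in WT by 0.46 (0.42 to 0.50), 0.47 (0.43 to 0.50), 0.34 (0.29 to 0.40) and 0.49 (0.44 to 0.55) on the log2 scale. S100a8 and S100a9 had 1.30 (1.15 to 1.45) and 2.02 (1.88 to 2.17). Without the rich cells the last 2 turned to -1.17 (-1.57 to -0.78) and -1.12 (-1.64 to -0.59), with free RNA of 67.1 (WT) and 241 CPM (CD169-DTR) for S100a8 and 120 and 450 CPM for S100a9. The part of free RNA in these ratios was not tested.

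The S100a4 and S100a6 differences in macrophages were unevenly spread over the clusters. Within the Pf4 cluster, S100a4 was 0.68 (0.58 to 0.78) and S100a6 0.81 (0.75 to 0.88) higher in WT on the log2 scale. In the Clec4e cluster the values were 0.14 (0.08 to 0.19) and 0.12 (0.07 to 0.17), and in the Ear2 cluster 0.42 (0.34 to 0.50) and 0.16 (0.08 to 0.24). The libraries also differed in depth there, with a median of 4329 (WT) and 16012 UMIs (CD169-DTR) in the Pf4 cluster. That cluster supplied 42.2% and 56.0% of the UMIs of the class. Without integration of the libraries, the cluster led by Pf4 had 382 WT and 283 CD169-DTR cells. A macrophage cluster led by Slfn4 then had 1328 and 199. Whether the Pf4 cluster holds the same cell state in both libraries was not tested. With macrophages that held a P2ry12 or Cd3e UMI left out, the class ratios were 0.13 for S100a4 and 0.15 for S100a6. That step removed unequal parts of the class, 460 of 2373 WT and 261 of 746 CD169-DTR macrophages.

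In microglia, 2 of 6 members were past 1.5-fold higher in WT (2.3% of 12480 genes) and 2 were past 1.5-fold lower (2.37%). S100a4 was higher by 0.87 (0.69 to 1.06) and S100a6 by 1.04 (0.87 to 1.22), S100a11 had 0.57 (0.41 to 0.74) and S100a10 0.02 (-0.16 to 0.20). The free RNA of WT was also richer in these genes, with 565 against 166 CPM of S100a4 and 745 against 274 CPM of S100a6. After the smaller estimate of free RNA was subtracted, the ratios were -0.22 for S100a4, 0.05 for S100a6, -0.15 for S100a11 and -0.92 for S100a10. With that subtraction 0 members were past 1.5-fold higher and 3 past 1.5-fold lower. S100a8 and S100a9 were lower in WT microglia by -4.85 (-5.12 to -4.58) and -5.12 (-5.37 to -4.88), and by -1.95 (-2.45 to -1.49) and -2.11 (-2.47 to -1.77) without the rich cells, with free RNA differing in the same direction as above.

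In granulocytes 2 of 6 members, S100a8 and S100a9, were past 1.5-fold lower in WT (15.8% of 3284 genes) and 0 of those with 50 UMIs were past 1.5-fold higher (11.3%). S100a8 was lower in WT by -1.06 (-1.09 to -1.03), S100a9 by -0.95 (-0.98 to -0.93), S100a6 by -0.48 and S100a11 by -0.31 on the log2 scale. After the larger estimate of free RNA was subtracted, S100a8 was at -0.47, S100a9 at -0.36 and S100a11 at 0.18, so both calls were lost. That estimate was 1655 UMIs per WT cell, where the median granulocyte had 2901 UMIs. After the smaller estimate was subtracted, S100a8 was at 21032 (WT) and 43008 CPM (CD169-DTR) and S100a9 at 34980 and 66435 CPM. Both calls thus held with the smaller estimate. The granule genes stood apart in the same direction: Camp, an antimicrobial peptide of secondary granules, was at 444 (WT) and 5343 CPM (CD169-DTR), Ngp at 1102 and 5368 CPM, and Ltf, lactoferrin, at 262 and 1398 CPM. Of the 7 neutrophil granule genes with 50 UMIs, 6 were past 1.5-fold lower in WT, and the median of the list was -1.38 against -0.10 over all genes. These granule genes are among the markers that define the class.

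Lymphocytes differed between the libraries in both directions. In T cells S100a4, S100a8 and S100a9 were past 1.5-fold higher in WT (12.9% of 8026 genes) and 0 members lower (3.8%). S100a4 differed by 0.64, but by 0.24 with equal weight per cell, 0.39 without the highest doublet scores and 0.54 with median-ratio scaling, all inside 1.5-fold. S100a6 differed by 0.47, and the 2.88 of S100a8 and 2.22 of S100a9 rested on 1 WT cell that held 94.5% of the UMIs of the pair. In NK cells S100a4 and S100a6 were past 1.5-fold lower in WT (5.43% of 5880 genes), S100a8 and S100a9 past 1.5-fold higher (8.62%), the latter with 99.1% of the WT UMIs of the pair in 3 cells. S100a4 and S100a6 were at -1.60 and -1.05, and stayed between -2.28 and -1.58 and between -1.63 and -1.02 in the alternatives. In B cells S100a4 and S100a6 were past 1.5-fold higher in WT (11.7% of 3296 genes) and 0 members with 50 UMIs lower (10.2%). S100a4 had 2.66, on 114 and 21 UMIs, and S100a6 1.94. The S100a4 ratio in B cells was 0.97 without the highest doublet scores. S100a10 differed little in T (-0.01) and NK cells (-0.34), and S100a11 was nearly equal in NK cells (421 and 422 CPM). In dendritic cells 0 members were past 1.5-fold higher in WT (7.16% of 9718 genes). S100a9 alone was past 1.5-fold lower (7.24%), at -1.46 on 38 and 28 UMIs. The smaller estimate of free RNA came to 51.0% (WT) and 33.5% (CD169-DTR) of those UMIs. Free RNA had S100a9 at 120 and 450 CPM, and its part in this ratio was not tested. S100a10 was at -0.43 in dendritic cells, with S100a4 and S100a6 at 0.11 and 0.18.

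**Figure D5:**
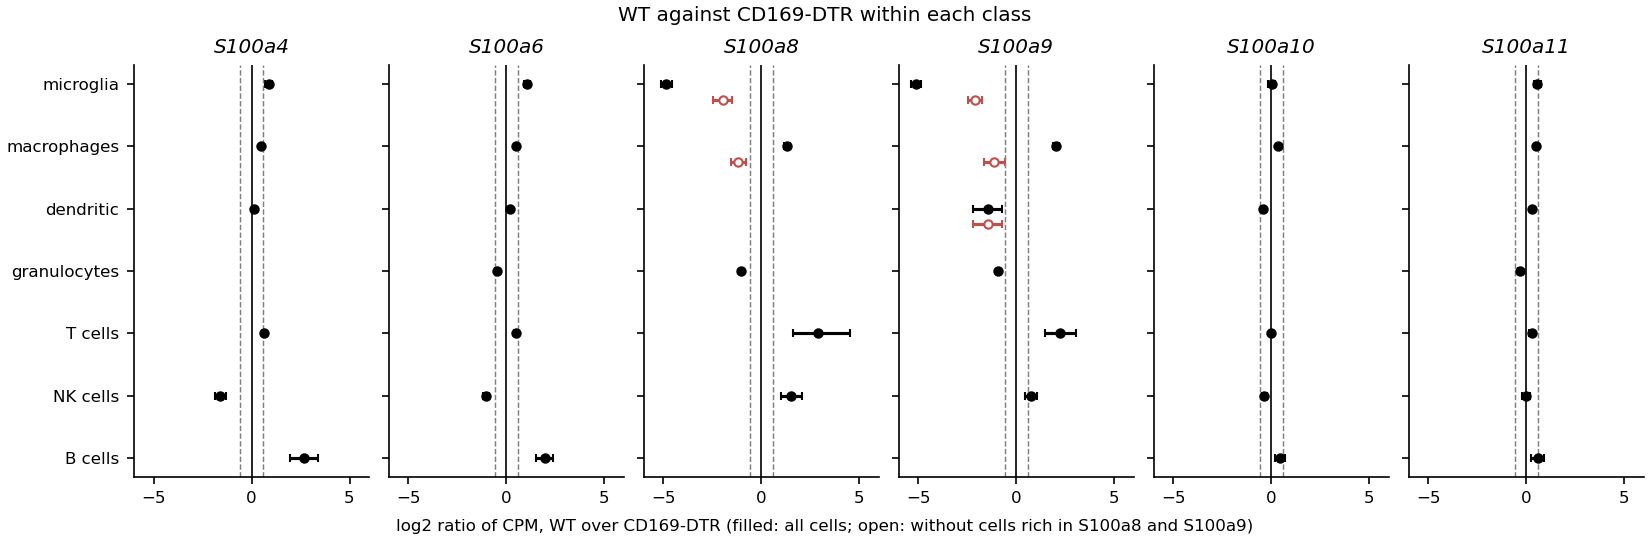
Log2 ratio of WT over CD169-DTR (x axis) for each S100 gene in 7 immune classes, with 95% counting intervals and dashed lines at 1.5-fold. Filled points are all cells, open points leave out cells rich in S100a8 and S100a9, and only values on at least 50 UMIs are drawn. In macrophages the filled points of S100a8 and S100a9 are at 1.30 and 2.02 and the open points at -1.17 and -1.12.

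Macrophages of at least 4500 UMIs, with and without a Siglec1 UMI, were set side by side within each library. The S100 counts were thinned to 4500 UMIs per cell, but Siglec1 was read from the unthinned counts, so the split was not matched for depth. In WT (394 cells with and 1225 without), S100a4 was lower in Siglec1+ macrophages by -0.58 (-0.67 to -0.49) on the log2 scale, S100a6 by -0.19, S100a10 by -0.27 and S100a11 by -0.18. In CD169-DTR (91 and 568 cells), the values were -0.37 (-0.56 to -0.19), -0.10, -0.40 and -0.09, the intervals of S100a6 (-0.24 to 0.05) and S100a11 (-0.33 to 0.13) including 0. S100a8 and S100a9 were lower in Siglec1+ macrophages, by -4.67 and -4.81 in WT on 6 and 9 UMIs, and the rich cells of the pair were not left out here. A Siglec1 UMI was found in 535 of 2373 and 97 of 746 macrophages, and cells without one may hold transcripts that were not captured.

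Partners of the members followed them only in part. In macrophages over microglia, 5 of 8 annexins with 50 UMIs were past 2-fold higher and 1 lower in both libraries (all genes: 11.1% and 8.33% higher). Anxa1, the partner of S100A11, was higher by 6.01 (WT) and 4.79 (CD169-DTR) on the log2 scale, and Anxa2, the partner of S100A10, by 4.79 and 4.06, followed by Anxa4 (2.92 and 2.73), Anxa5 (2.29 and 2.62) and Anxa11 (1.78 and 1.71). Anxa3 was lower, by -2.40 and -2.17. The median of the list was 2.04 and 2.17 against -0.35 and -0.38 over all genes.

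Of the genes around annexin A2 and plasminogen activation, 4 of 6 had 50 UMIs, with 2 past 2-fold higher in both libraries. Ahnak, a large scaffold protein that binds the annexin A2 and S100A10 complex, was higher by 6.02 and 6.77, and Plaur, the urokinase receptor, by 1.51 and 1.46. Among receptors and signaling genes of S100A8 and S100A9, 2 of 8 were higher and 2 lower in WT, and 1 of 9 higher and 3 lower in CD169-DTR, beside 11.1% of all genes higher and 25.7% lower in WT and 8.33% and 24.7% in CD169-DTR. Cd36, a scavenger receptor, was higher by 2.27 and 2.59, while Cd33 was lower by -1.998 and -1.45 and Bsg, basigin, by -1.70 and -1.32. Of the partners of S100A4 and S100A6, 0 of 4 in WT and 0 of 5 in CD169-DTR passed 2-fold in either direction.

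Other S100 genes were mostly too rare to compare. Of 10, only 2 in WT and 3 in CD169-DTR had 50 UMIs in macrophages and microglia together, and S100a1 alone was past 2-fold higher in macrophages, by 1.12 and 1.28. Of the UMIs of the neutrophil granule genes Camp, Ngp, Ltf and Lcn2, the WT macrophage described above held 2030 of 2085 in its class and the CD169-DTR cell placed with microglia 4612 of 4726. With these cells included, 7 of 7 measured granule genes were higher in WT macrophages than in microglia, whereas in CD169-DTR 3 of 8 were higher and 4 lower, with Camp at 9.19 in WT and -6.33 in CD169-DTR. Between the libraries, and with that WT cell included, WT macrophages were past 1.5-fold higher in Camp (6.48), Ltf (6.50), Ngp (5.44) and Lcn2 (1.21), and lower in Cd33 (-0.69), Retnlg (-1.26), Mmp8 (-0.76) and Prtn3 (-0.69).

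For each member, the genes with the most similar profile over 7 immune classes in 2 libraries (14 points, 12877 genes compared, Pearson's r of log2 CPM plus 1) are given as a description, since points of a library share depth and free RNA. S100a8 and S100a9 were each the gene most like the other (r = 0.995), followed for S100a8 by Zkscan6, Retnlg, G0s2 and Cxcr2, the chemokine receptor of neutrophils. S100a4 was most like Sec61b (0.932), Crip1, Dynll1, Kcnn4 and Vim, and S100a10 most like Tpt1 (0.989), Tmsb10, Pdlim1, Gm9844 and Ahnak. S100a6 and S100a11 shared Rara and Mkrn1 among their 5 nearest genes, with Pstpip1 first for S100a6 (0.969) and Rara first for S100a11 (0.971), and had r = 0.959 with each other. S100a4 and S100a10 had r = 0.789, and S100a4 and S100a8 had r = -0.381.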

How the data were processed

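The authors counted UMIs per gene and barcode with Cell Ranger against mm10, named in the submitters' processing notes (the matrix header states software version 3.1.0), and deposited raw UMI counts of all barcodes without normalization. Barcodes of 500 or more UMIs counted as cells if mitochondrial genes took no more than 17% of them. Libraries were integrated and clustered with Seurat 5.3.0 (SeuratObject 5.2.0, Matrix 1.6.5, R 4.3.3): scale factor 10000, 2000 features, 50 dimensions for integration and 30 for clustering, resolution 1, with the S100 genes left out. Clusters were named "X-like" from marker lists by thresholds set after the data were seen, and unnamed clusters stayed out of the immune classes. Doublets were scored with Scrublet (scanpy 1.11.5) but kept, and leaving out the 8% highest scores was an alternative.

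UMIs were summed per class and library and scaled to CPM. Intervals are at 95%: exact Poisson for levels, exact conditional for ratios and Clopper-Pearson for shares. Reads of 1 molecule were collapsed by UMI, and the intervals hold no error between animals. Shares were taken after thinning to 4500 UMIs. Genes needed 50 UMIs in both groups together. Folds used were 2 between classes and 1.5 between libraries. Sequences are from RefSeq tables. No gene model was fitted, and self-tests ran on simulated counts. The tools were python 3.11.15, numpy 2.4.6, scipy 1.17.1, pandas 2.3.3 and matplotlib 3.10.9.

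The members and gene lists were chosen with earlier results of these data known. All 6 members are described. List genes are named where they passed 2-fold between macrophages and microglia in both libraries or 1.5-fold between libraries in macrophages, at most 6 a list, and for each member the 5 genes of highest correlation (at least 200 UMIs). Some results of the lists are not reported here. Genes named as leading a cluster, single cells and the granule genes of granulocytes were chosen after their values were seen. Alternatives changed the cell minimum (2000 UMIs), the mitochondrial maximum (10%), doublets, integration, resolution (0.5 and 2), free RNA, scaling, cell and cluster weights, cells with markers of another class and the 1% of cells with most UMIs of a member.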

Additional observations from a re-analysis of the deposited data

Results flagged for a closer look

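Several log2 ratios of WT over CD169-DTR differed between immune classes beyond their counting intervals or pointed in opposite directions. With 1 library per group the difference was not tested in any of them. S100a4 was at 0.87 in microglia, 0.64 in T cells and 2.66 in B cells, but at -1.60 in NK cells. S100a6 was at 1.04 in microglia and 1.94 in B cells, and at -1.05 in NK cells.

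S100a8 was at 2.88 in T cells, 1.51 in NK cells and 1.30 in macrophages, and at -4.85 in microglia and -1.06 in granulocytes. S100a9 was at 2.22 in T cells, 0.73 in NK cells and 2.02 in macrophages, and at -5.12 in microglia, -1.46 in dendritic cells and -0.95 in granulocytes. In CD169-DTR microglia, a single cell held 92.6% of the S100a8 and 90.5% of the S100a9 UMIs. Without the rich cells the microglial ratios were -1.95 and -2.11. In T and NK cells of WT, 1 and 3 cells held 94.5% and 99.1% of the pair's UMIs, and without such cells the ratios of macrophages, T cells and NK cells were all below 0. In T cells the ratios then rested on 5 and 5 UMIs of S100a8 and 11 and 16 of S100a9. In NK cells they rested on 4 and 3 UMIs of S100a8 and 4 and 5 of S100a9. The intervals of S100a8 in T and NK cells and of S100a9 in NK cells included 0.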

How the results depend on the processing

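The ratios of S100a4, S100a6, S100a10 and S100a11 between macrophages and microglia kept their sign in 13 of 13 alternatives in each library. The cause of the changes below was not tested. Of the 3 alternatives added after the data were seen, leaving out cells rich in S100a8 and S100a9 took the WT over CD169-DTR log2 ratio of S100a8 to -1.39 in T cells, -1.30 in NK cells and -1.17 in macrophages, and that of S100a9 to -1.93, -2.03 and -1.12. The T and NK cell values without the rich cells lay under the minimum of 50 UMIs, and except for S100a9 in T cells their intervals included 0. Leaving out the 1% of cells with most UMIs of the gene gave -1.67 (macrophages) and -1.70 (NK cells) for S100a8, and -1.45 (macrophages), -2.50 (T cells) and -3.03 (NK cells) for S100a9. Without the highest doublet scores the values were -1.09 (S100a8, NK cells), -1.83 (S100a9, NK cells) and -2.03 (S100a9, T cells), and with equal weight per cell -0.0536 (S100a8, macrophages). S100a9 in CD169-DTR macrophages over microglia turned to 2.34 without the cluster led by Pbk, 0.37 with equal weight per cell and 2.67 without cells holding a marker of another class. S100a8 there went from -0.80 to 3.25, 0.81 and 3.43 under the same settings and to 1.67 without the 1% of cells with most UMIs, and members past 2-fold higher in CD169-DTR macrophages went from 4 to as many as 6. S100a4 in WT over CD169-DTR microglia turned to -0.22 after the smaller estimate of free RNA was subtracted, with S100a10 going from 0.02 to -0.92 and S100a11 from 0.57 to -0.15. The larger estimate took granulocytes to -0.47 (S100a8), -0.36 (S100a9) and 0.18 (S100a11). With the smaller estimate, S100a8 and S100a9 stayed past 1.5-fold lower in WT granulocytes.

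Members past 1.5-fold higher in WT macrophages numbered 2, but 0 without the rich cells, with equal weight per cell and without the 1% of cells with most UMIs, and members past 1.5-fold lower numbered 0, but 2 without the rich cells and without that 1%. Members past 1.5-fold higher in WT microglia numbered 2, but 1 without integration and 0 after free RNA was subtracted with either estimate. The other 108 counts of members under an alternative stayed within 1.5 times. No paired analysis was possible because each group had 1 library. Border-associated macrophages were not counted as macrophages in an alternative, since no cluster took that name. The estimate of free RNA from all lymphocytes was 1655 (WT) and 847 (CD169-DTR) UMIs per cell, and 139 and 87.2 without the 10% of lymphocytes with most microglial marker UMIs. Depth limits B cells, plasmacytoid dendritic cells and all levels near free RNA.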
